A study of Homo sapiens with 6 samples.

Results

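The 10 genes described here encode carriers that move amino acids across the plasma membrane, and they were taken by name from a table of 57820 genes. All 10 were found by symbol, and 9 had enough counts to be tested, the exception being SLC7A3. They are SLC6A9, which encodes the glycine transporter GlyT1, SLC1A4 and SLC1A5, SLC7A5 with its partner SLC3A2, SLC38A1 and SLC38A2, SLC43A1, and the cationic amino acid transporters SLC7A1 and SLC7A3. The last 2 carry arginine and lysine, so glycine and neutral amino acids do not cover the whole set. The list was chosen by gene name when the fold changes between minocycline and vehicle in these same libraries were already known, so the differences between the groups given below describe these genes and are not independent evidence about them.

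The cells were HEK293, an immortal human line of embryonic kidney origin. They received minocycline at 100 µM for 12 h, or only its vehicle dimethyl sulfoxide (DMSO) over the same time. No heat shock was applied to either group, and both were grown in the same serum-containing medium. Minocycline belongs to the tetracyclines, antibiotics that act on the ribosomes of bacteria and also reach those of mitochondria. Total RNA was sequenced from 3 biological replicates of each group, with 17303180 to 17830320 counts per minocycline library and 17395826 to 17835756 per vehicle library.

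Cells import most amino acids through a small number of carrier families. Some carriers use the sodium gradient to concentrate amino acids in the cell, as GlyT1 and the SLC38 carriers do, and others exchange an amino acid inside the cell for a different one outside, as SLC1A5 and SLC7A5 do. Glutamine taken up by the sodium-dependent carriers can be exchanged for leucine and other large amino acids through SLC7A5, which supplies the nutrient-sensing kinase complex mTORC1. Several of these genes are known targets of ATF4, a transcription factor of the integrated stress response whose translation increases when amino acids run short.

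The promoters of the tested genes were searched for TGATGNAA on both strands, the core of the composite element that ATF4 binds with a C/EBP partner, because this element is the best known link between amino acid supply and transporter transcription. Windows of 300 bases, from 250 before to 50 after each start site, came from a RefSeq table in GRCh38.p14 and held 9 of the 10 genes, SLC7A3 being the other. The 9 genes had 16 windows, and each matched the GRCh37 genome, the build with the hg19 coordinates of the counts, at exactly 1 place. The core was found in 5 of the 16 windows, belonging to SLC1A4, SLC1A5, SLC3A2, SLC38A1 and SLC7A1, and it is given in capitals within 30 bases of each, 5′ to 3′ on the strand of the gene. By position from the start site, the first base of the match lay at -7 in SLC1A4, -97 in SLC1A5, 38 in SLC3A2, -4 in SLC38A1 and 8 in SLC7A1.
SLC1A4, GRCh37 chr2:65216515-65216544, plus strand: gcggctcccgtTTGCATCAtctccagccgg
SLC1A5, GRCh37 chr19:47288150-47288179, minus strand: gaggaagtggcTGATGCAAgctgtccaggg
SLC3A2, GRCh37 chr11:62649191-62649220, plus strand: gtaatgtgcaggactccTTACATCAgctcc
SLC38A1, GRCh37 chr12:46660285-46660314, minus strand: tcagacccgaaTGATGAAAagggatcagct
SLC7A1, GRCh37 chr13:30169800-30169829, minus strand: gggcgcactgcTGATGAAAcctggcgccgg

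Over all genes of the same table, the core was in 3.62% of 35116 windows and in at least 1 window of 4.46% of 27305 genes. Among 37 other amino acid transporter genes with a window, which are listed further on, 1 gene, SLC1A3, held it. The cyclic AMP response element TGACGTCA was in no window of the 9 genes and in 1.85% of all windows. SLC1A4, SLC1A5, SLC3A2 and SLC38A1 have more than 1 start site, and the match lay at 1 of them in each, while the counts are sums over the whole gene and do not tell start sites apart. A match of letters is not evidence of binding, and the count was not tested.

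The bases before the start site of SLC1A4 that carries the match and of SLC6A9, the gene with the largest change and without a match in its single window, are given for comparison. The SLC1A4 stretch runs from position -250 to the first transcribed base, and the SLC6A9 stretch from -250 to -1.
SLC1A4, GRCh37 chr2:65216283-65216533, plus strand: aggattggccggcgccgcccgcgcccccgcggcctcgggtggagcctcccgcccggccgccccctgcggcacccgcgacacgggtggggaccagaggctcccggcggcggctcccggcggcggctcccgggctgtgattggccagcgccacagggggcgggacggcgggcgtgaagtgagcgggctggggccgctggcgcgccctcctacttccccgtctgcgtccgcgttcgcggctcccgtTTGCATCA
SLC6A9, GRCh37 chr1:44497135-44497384, minus strand: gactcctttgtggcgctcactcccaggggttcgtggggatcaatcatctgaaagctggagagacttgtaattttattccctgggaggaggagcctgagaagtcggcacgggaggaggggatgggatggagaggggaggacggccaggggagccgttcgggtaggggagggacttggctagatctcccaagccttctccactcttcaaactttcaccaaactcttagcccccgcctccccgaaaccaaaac

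The levels of the genes differed by orders of magnitude. CPM are counts per 1e6 counts of tested genes in a library, with the library size multiplied by its TMM factor (trimmed mean of M values). On a scale of CPM per kilobase of annotated exon, SLC1A5 had the highest mean level in either group. It was at 165 ± 8.18 in minocycline cells and 81.7 ± 16.0 in vehicle cells (SD, n = 3 each, as for all means below). SLC7A5 was at 97.5 ± 12.7 in minocycline cells and 39.4 ± 13.8 in vehicle cells, and SLC3A2 at 55.4 ± 1.13 in minocycline cells and 32.1 ± 2.95 in vehicle cells. SLC38A2, SLC7A1 and SLC38A1 followed in that order in both groups, from 37.2 down to 20.3 in minocycline cells and from 20.1 down to 10.6 in vehicle cells. SLC1A4 and SLC43A1 were lower again, at 8.71 ± 0.308 and 7.96 ± 0.617 in minocycline cells and at 4.31 ± 0.566 and 4.60 ± 0.231 in vehicle cells. SLC6A9 was at 2.20 ± 0.463 in minocycline cells and 0.434 ± 0.134 in vehicle cells.

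Among vehicle libraries the ranges of neighbours in this order overlapped from SLC7A5 through SLC38A1 and between SLC43A1 and SLC1A4. SLC1A5 stood clear above SLC7A5, SLC38A1 above SLC43A1, and SLC1A4 above SLC6A9. Among minocycline libraries the neighbours with overlapping ranges were SLC38A2 with SLC7A1, and SLC1A4 with SLC43A1. The order of the SLC7A5 and SLC3A2 levels depends on the length used, since over the longest annotated transcript SLC7A5 was at 41.2 and SLC3A2 at 72.1 CPM per kilobase in vehicle cells.

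**Figure D1:**
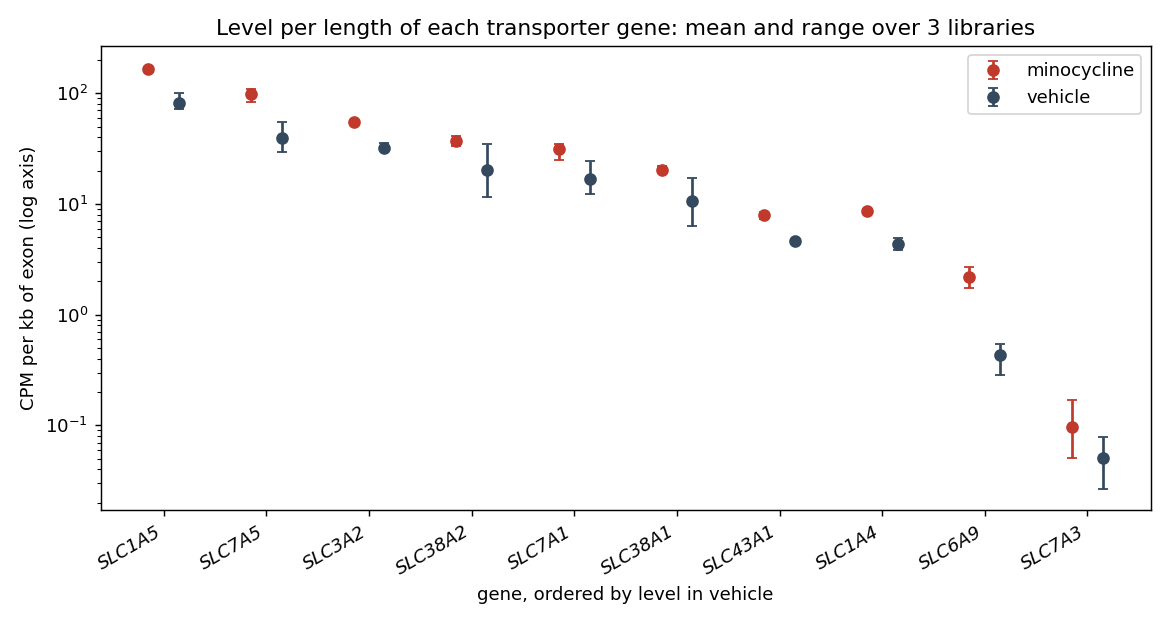
Level of each transporter gene in CPM per kilobase of annotated exon, on a log axis, as the mean (point) and range (bar) over 3 minocycline libraries and 3 vehicle libraries. SLC1A5 is highest in both groups and SLC7A3 lowest, and the vehicle bars of SLC38A2, SLC38A1, SLC7A1 and SLC7A5 are long.

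SLC7A3, the second cationic carrier of the list, was close to absent. It had 3, 7 and 2 counts in minocycline replicates 1, 2 and 3 and 2, 3 and 1 counts in vehicle replicates 1, 2 and 3. At this depth no difference was detectable, and no fold change is given.

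The glycine transporter SLC6A9 was the one gene of the list that passed the test over the whole table. It had 14.0, 9.19 and 11.4 CPM in minocycline replicates 1, 2 and 3, against 2.50, 1.49 and 2.84 CPM in vehicle replicates 1, 2 and 3. The lowest minocycline library was above the highest vehicle library, and vehicle replicate 2 was lowest of all. The log2 fold change was 2.34 ± 0.27 (SE), a 5.06-fold higher level, with a Benjamini-Hochberg adjusted p of 0.0208 in edgeR's quasi-likelihood test over 17225 genes. Of those genes, 0.0522% were higher past an adjusted p of 0.05, and 0.0348% had a larger fold change than SLC6A9. The call was lost without minocycline replicate 1 (adjusted p = 0.187), without minocycline replicate 3 (adjusted p = 0.223) and without vehicle replicate 2 (adjusted p = 0.0824), with log2 fold changes of 2.17, 2.33 and 2.11. In bulk RNA of this kind, more cells with a transcript and more of it per cell cannot be told apart.

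The vehicle values of SLC6A9 rest on few reads. It had 169 to 257 counts in the minocycline libraries, against 25 to 47 counts in the vehicle libraries. The exact Poisson 95% intervals, which cover counting error only, ran from 7.86 to 15.9 CPM over the minocycline libraries and from 0.966 to 3.78 CPM over the vehicle libraries. SLC6A9 (ENSG00000196517, protein-coding) lies on the minus strand of chromosome 1 from 44457172 to 44497139 in GRCh37. Its exons share 413 bases, 7.87% of their length, with exons of CCDC24 on the opposite strand, and whether the counting used strand is not given in the sources used here. CCDC24 was at 12.5 ± 1.20 CPM in minocycline cells and 15.6 ± 3.04 CPM in vehicle cells (log2 fold change -0.32 ± 0.19, adjusted p = 0.820), and its part in the SLC6A9 counts was not tested.

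The SLC1 carriers SLC1A4 and SLC1A5, which exchange alanine, serine, cysteine or glutamine for other neutral amino acids, had nearly the same fold change at very different levels. SLC1A4 had 62.7, 60.2 and 58.4 CPM in minocycline replicates 1, 2 and 3, against 34.2, 29.0 and 26.5 CPM in vehicle replicates 1, 2 and 3. SLC1A5 had 574, 551 and 520.1 CPM in the minocycline replicates, against 334, 239.7 and 243 CPM in the vehicle replicates. In both genes every minocycline library was above every vehicle library, and vehicle replicate 1 was the highest of its group. The log2 fold change was 1.01 ± 0.14 for SLC1A4 (adjusted p = 0.0523) and 1.01 ± 0.16 for SLC1A5 (adjusted p = 0.102), and neither passed. SLC1A4 passed with upper-quartile scaling (adjusted p = 0.0406), and it ran from 4.05e-07 to 0.566 over its 16 alternatives.

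Exons of SLC1A5, on chromosome 19 from 47278140 to 47291851, share 780 bases, 23.4% of their length, with a long noncoding RNA gene on the opposite strand. That gene is not a row of the table, and its part in the SLC1A5 counts was not tested. SLC1A4 lies on chromosome 2 from 65215611 to 65250999, and no other annotated exon overlaps its own.

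SLC7A5 and SLC3A2 encode the light and heavy chains of LAT1, the heterodimer that exchanges leucine and other large neutral amino acids. SLC7A5 had 516, 479 and 398 CPM in minocycline replicates 1, 2 and 3, against 263, 159 and 141 CPM in vehicle replicates 1, 2 and 3. SLC3A2, whose product also pairs with other SLC7 light chains, had 358, 346 and 359 CPM in the minocycline replicates, against 227, 193 and 195 CPM in the vehicle replicates. The groups did not overlap in either gene, and SLC3A2 varied little within each. The log2 fold change was 1.31 ± 0.23 for SLC7A5, the largest of the list after SLC6A9 (adjusted p = 0.177), and 0.79 ± 0.12 for SLC3A2, among the smallest (adjusted p = 0.102). With the replicate number as a block, SLC7A5 passed at an adjusted p of 0.0115 with a log2 fold change of 1.35, and then 2 of the 9 genes passed, SLC6A9 and SLC7A5, where 0.0697% of all genes tested were higher.

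SLC7A5 lies on chromosome 16 from 87863629 to 87903113 and has annotated pseudogene copies on the same chromosome, so that some of its reads may have been counted there. SLC7A5P1 was at 1.84 ± 0.488 CPM in minocycline cells and 0.902 ± 0.242 CPM in vehicle cells (log2 fold change 1.02 ± 0.34, adjusted p = 0.820), and SLC7A5P2 had 0 counts in every library. SLC3A2 lies on chromosome 11 from 62623476 to 62656352.

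The SLC38 carriers SLC38A1 and SLC38A2, which bring in glutamine, alanine and other small neutral amino acids with sodium, lie next to each other on chromosome 12, with 88170 bases and no protein-coding gene between them. SLC38A1 had 198, 219.7 and 192 CPM in minocycline replicates 1, 2 and 3, against 173, 81.0 and 63.6 CPM in vehicle replicates 1, 2 and 3. SLC38A2 had 218, 269 and 239.6 CPM in the minocycline replicates, against 224, 92.6 and 75.3 CPM in the vehicle replicates. Vehicle replicate 1 was far above the other vehicle libraries in both genes. For SLC38A2 it lay above minocycline replicate 1, so that the groups overlapped, and for SLC38A1 it lay below every minocycline library. The log2 fold change was 0.94 ± 0.31 for SLC38A1 and 0.89 ± 0.35 for SLC38A2, with an adjusted p of 0.820 for each.

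SLC7A1, the general importer of arginine and lysine, had 259.5, 265 and 193 CPM in minocycline replicates 1, 2 and 3, against 189, 106 and 94.7 CPM in vehicle replicates 1, 2 and 3. The groups did not overlap, but minocycline replicate 3 and vehicle replicate 1 were close. Its log2 fold change was 0.88 ± 0.25 (adjusted p = 0.820). SLC43A1, which carries large neutral amino acids without sodium, had 29.9, 25.7 and 28.7 CPM in the minocycline replicates, against 15.8, 15.7 and 17.2 CPM in the vehicle replicates. Here the vehicle libraries were almost level and the groups were well apart, with a log2 fold change of 0.79 ± 0.14 (adjusted p = 0.198). SLC7A1 lies on chromosome 13 from 30083551 to 30169825 and SLC43A1 on chromosome 11 from 57252007 to 57283253.

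Across the list, 9 of 9 tested genes had a higher fitted level with minocycline and 1 passed. In 8 of the 9 every minocycline library was above every vehicle library, an arrangement that 5.74% of all genes tested showed in this direction. An unadjusted p under 0.05 with a higher level was found for 9 of the 9 and for 2.72% of all genes tested, and a fitted fold of 1.5 or more for 9 of the 9 and for 3.67%. The median log2 fold change was 0.94 over the 9 genes and 0.01 over all genes tested. SLC7A3 is not in these counts, and since the list was chosen with this contrast known, its distance from the background is not a test. Summed over the 10 genes, the level was 2230.2, 2226 and 2000.5 CPM in minocycline replicates 1, 2 and 3, against 1462, 918 and 859.9 CPM in vehicle replicates 1, 2 and 3, and the ratio of the means was 1.99.

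How many of the 9 genes passed depended on the fit. With RLE scaling (0.0464% of all genes higher), library size alone (0.0755%), at least 10 counts in every library (0.0708%) or limma-voom (0.0639%), SLC6A9 alone passed. SLC1A4 joined it with upper-quartile scaling (0.0581%) and with the newer quasi-likelihood method (0.0755%). DESeq2 called 6, namely SLC6A9, SLC1A4, SLC1A5, SLC7A5, SLC3A2 and SLC43A1 (0.29% of all genes higher). SLC38A1, SLC38A2 and SLC7A1 passed besides these with no filter on low counts (0.224%) and with 1 surrogate variable (0.482%). Without the filter the SE of SLC38A1, SLC38A2 and SLC7A1 was 0.164 each, against 0.31, 0.35 and 0.25 in the main fit. The SE of SLC3A2 rose from 0.124 to 0.164, so the spread of single genes counted for little there. With the surrogate variable the log2 fold changes of SLC38A1, SLC38A2 and SLC7A1 were 0.66, 0.60 and 0.61, against 0.94, 0.89 and 0.88 in the main fit. SLC6A9 passed without minocycline replicate 2 (0.0454%) and without vehicle replicate 3 (0.0451%). None of the 9 passed without minocycline replicate 1 (0.00566%), minocycline replicate 3 (0.00565%) or vehicle replicate 2 (0.0225%).

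**Figure D2:**
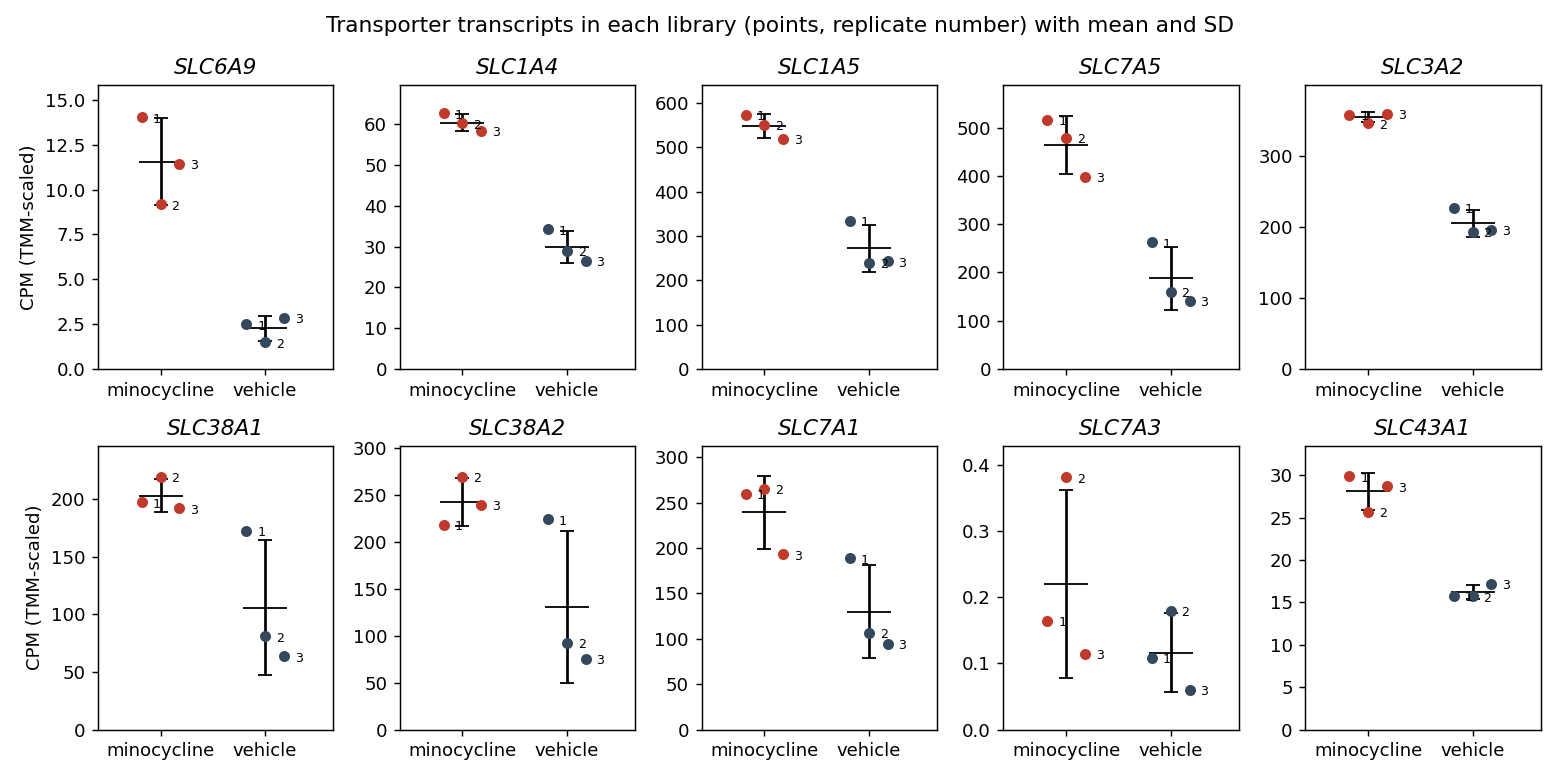
CPM of each transporter gene (TMM-scaled, linear axes from 0) in the 3 minocycline libraries and the 3 vehicle libraries, with the replicate number beside each point and the mean and SD as a line and bars. The groups are apart in SLC6A9, SLC1A4, SLC1A5, SLC7A5, SLC3A2, SLC38A1, SLC7A1 and SLC43A1, while vehicle replicate 1 reaches 224 CPM in SLC38A2, above minocycline replicate 1 at 218.

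The genes differed in how far the vehicle libraries lay from each other. The highest over the lowest vehicle CPM was 2.97 in SLC38A2, 2.71 in SLC38A1, 1.99 in SLC7A1, 1.90 in SLC6A9 and 1.87 in SLC7A5, against a median of 1.35 over 11874 genes with a mean of at least 5 CPM. It was 1.39 in SLC1A5, 1.29 in SLC1A4, 1.18 in SLC3A2 and 1.09 in SLC43A1. The ratio exceeded 2 in 2 of the 9 genes, both of the SLC38 family, and in 7.84% of all genes of that level. Among minocycline libraries it was 1.23 in SLC38A2 and 1.14 in SLC38A1, against a median of 1.22. Vehicle replicate 1 was the highest vehicle library in 7 of the 9 tested genes and in 46.3% of the 11874 genes of that level, and SLC6A9 and SLC43A1 had their highest vehicle value in replicate 3.

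Vehicle replicate 1 stood apart over the whole table as well. On the first principal component, with 52.9% of the variance, it lay at -34.9, beside minocycline replicates 2 (-32.3) and 1 (-14.0), whereas minocycline replicate 3 was at 3.06 and vehicle replicates 2 and 3 were at 31.1 and 47.1. All 9 tested genes had a loading on the side of vehicle replicate 1, which is also the side of minocycline replicates 1 and 2. Vehicle replicates 2 and 3 lay on the other side, so genes higher with minocycline tend to load this way. The shared side thus follows in part from how the list was chosen and is not separate evidence about these genes. The share of all genes on that side was not computed. A loading there does not mean a high level in vehicle replicate 1, where SLC6A9 and SLC43A1 were below their own means (-0.98 and -0.43). The loading was larger in size than that of SLC38A2 in 0.917% of genes, of SLC38A1 in 1.18%, of SLC7A5 in 1.85%, of SLC6A9 in 2.33% and of SLC7A1 in 3.00%, and than that of SLC43A1 in 51.6%. The part of this component in the differences between the groups was not tested.

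Without vehicle replicate 1 the log2 fold change was 1.53 for SLC38A2, 1.49 for SLC38A1, 1.63 for SLC7A5 and 1.25 for SLC7A1, while it was 1.12 for SLC1A4, 0.87 for SLC3A2 and 0.77 for SLC43A1. In that setting 9 of the 9 genes passed, where 9.52% of all genes tested were higher. Without vehicle replicate 3 it was 0.60 for SLC38A2, 0.67 for SLC38A1 and 0.69 for SLC7A1. The labels give the replicate number as a batch too, and within batches 1, 2 and 3 the log2 difference was -0.04, 1.54 and 1.67 for SLC38A2 and 0.19, 1.44 and 1.60 for SLC38A1. It was 2.44, 2.53 and 1.97 for SLC6A9, 0.87, 1.05 and 1.13 for SLC1A4, 0.97, 1.59 and 1.50 for SLC7A5, and 0.91, 0.70 and 0.74 for SLC43A1.

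**Figure D3:**
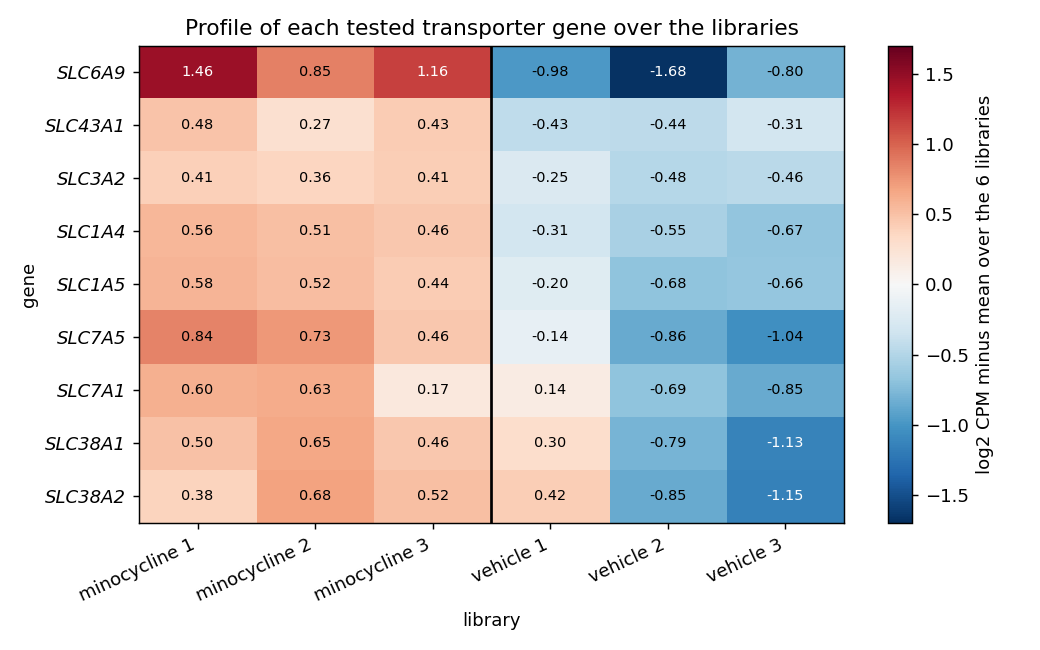
Log2 CPM of the 9 tested transporter genes in each library minus the mean of the gene over the 6 libraries (colour and number), with minocycline libraries left of vehicle libraries. In vehicle replicate 1, SLC38A2, SLC38A1 and SLC7A1 are above their own mean (0.42, 0.30 and 0.14), whereas SLC6A9 and SLC43A1 are below it (-0.98 and -0.43).

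The profiles over the 6 libraries were compared by the root mean square difference in log2 CPM after each gene was centred on its own mean. The paralogs lay close together. SLC1A4 was the nearest of all tested genes to SLC1A5, at 0.07, and 1 gene was nearer to SLC1A4 than SLC1A5 was. SLC38A2 was the nearest of all tested genes to SLC38A1, at 0.08, and 1 gene was nearer to SLC38A2 than SLC38A1 was. SLC3A2 was nearer to SLC43A1, at 0.11, than to its partner SLC7A5.

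Outside the list, the genes with a mean of at least 5 CPM nearest to SLC6A9 were STC2 (0.32), SLC7A11 (0.37), DDIT4 (0.42), FUT1 (0.43) and CHAC1 (0.49). STC2 encodes the secreted glycoprotein stanniocalcin 2, SLC7A11 the cystine and glutamate exchanger, DDIT4 an inhibitor of mTORC1, FUT1 a fucosyltransferase and CHAC1 an enzyme that degrades glutathione. All 5 had log2 fold changes of 1.81 to 2.37 and passed the test, where 0.0522% of all genes tested were higher. They were picked for a profile like that of SLC6A9, so fold changes near its own follow from the choice and are not separate evidence. STC2 passed in all 16 alternatives. Without minocycline replicate 1 the adjusted p was 0.0909 for SLC7A11, 0.104 for FUT1, 0.162 for CHAC1 and 0.187 for DDIT4. Without minocycline replicate 3 it was 0.0834 for SLC7A11, 0.0834 for FUT1, 0.180 for CHAC1 and 0.223 for DDIT4, and DDIT4 also lost its call without vehicle replicate 2 (adjusted p = 0.137). Nearest to SLC1A4 were VEGFA (0.06), MARS1 (0.10), LRRC8D (0.12), GPAT3 (0.16) and CEBPG (0.16). VEGFA is a vascular growth factor, MARS1 the methionyl-tRNA synthetase, LRRC8D a subunit of volume-regulated anion channels, GPAT3 an enzyme of glycerolipid synthesis and CEBPG a C/EBP transcription factor. Of these VEGFA passed (log2 fold change 1.01 ± 0.13, adjusted p = 0.0488), where 0.0522% of all genes tested were higher. Its adjusted p ran up to 0.566 over 16 alternatives, of which it passed in 9. The genes near SLC1A4 were likewise picked for a profile like that of SLC1A4, so similar fold changes follow from the choice.

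Ratios of 2 genes within a library do not depend on how libraries are scaled. The ratio of SLC1A4 to SLC1A5 counts was 0.109, 0.109 and 0.112 in minocycline replicates 1, 2 and 3, against 0.103, 0.121 and 0.109 in vehicle replicates 1, 2 and 3. The ratio of SLC38A1 to SLC38A2 counts was 0.905, 0.816 and 0.803 in the minocycline replicates, against 0.770, 0.874 and 0.844 in the vehicle replicates. In both pairs of paralogs the groups overlapped, and the difference in mean log2 ratio was -0.01 and 0.02. Within batches 1, 2 and 3 the log2 difference took both signs, at 0.09, -0.15 and 0.04 for the SLC1 pair and 0.23, -0.10 and -0.07 for the SLC38 pair. The SD of the log2 ratio was 0.02 with minocycline and 0.12 with vehicle in the first pair, and 0.09 in each group in the second.

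For the LAT1 chains, SLC7A5 to SLC3A2 was 1.44, 1.39 and 1.11 in minocycline replicates 1, 2 and 3, against 1.16, 0.826 and 0.720 in vehicle replicates 1, 2 and 3. Minocycline replicate 3 lay below vehicle replicate 1, and the mean log2 ratio was 0.38 ± 0.20 with minocycline and -0.18 ± 0.35 with vehicle. The groups overlapped, while within batches 1, 2 and 3 the log2 difference was 0.32, 0.75 and 0.62. SLC7A5 to SLC1A5 was 0.898, 0.870 and 0.765 in the minocycline replicates, against 0.788, 0.665 and 0.578 in the vehicle replicates, with overlap between the groups and within-batch log2 differences of 0.19, 0.39 and 0.40. SLC7A5 to SLC7A1 was 1.99, 1.81 and 2.06 in the minocycline replicates, against 1.39, 1.50 and 1.49 in the vehicle replicates, without overlap, and the difference in mean log2 ratio was 0.42 (within batches 0.51, 0.27 and 0.47). SLC6A9 to SLC1A4 was 0.224, 0.153 and 0.196 in the minocycline replicates, against 0.0730, 0.0514 and 0.107 in the vehicle replicates, also without overlap, and the difference was 1.35 (within batches 1.62, 1.57 and 0.87). With 3 against 3 libraries the smallest p of a two-sided exact permutation test is 0.1, so these differences could not pass such a test and are given as values. The pairs were chosen with the fold changes known, which were 2.34 in log2 for SLC6A9 and 1.01 for SLC1A4. Separation of that ratio largely follows from this choice, and the share of other gene pairs without overlap was not computed.

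**Figure D4:**
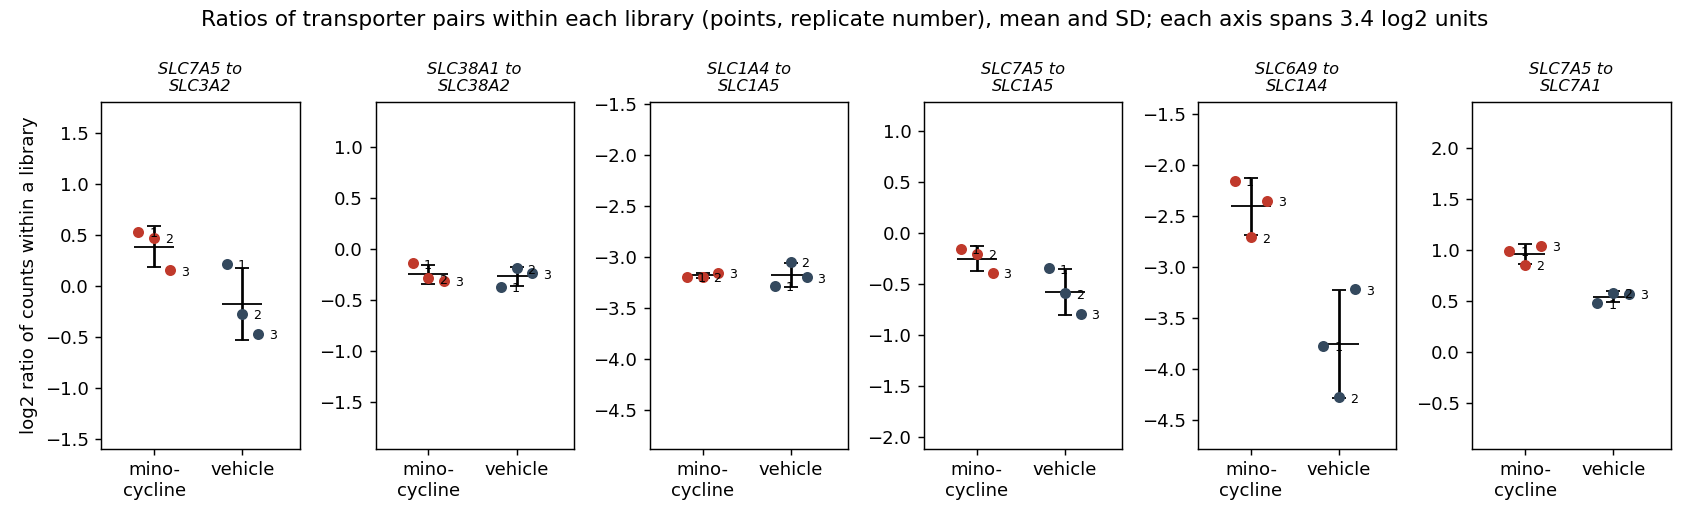
Log2 ratio of the counts of 2 transporter genes within each library, for 6 pairs, with minocycline left of vehicle, replicate numbers beside the points and the mean and SD. The ratios of SLC1A4 to SLC1A5 and of SLC38A1 to SLC38A2 overlap between the groups, and those of SLC6A9 to SLC1A4 and of SLC7A5 to SLC7A1 do not.

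Other amino acid carriers were taken from lists of known transporters. Of 28 further plasma membrane carriers, 14 were tested, 1 passed as higher and none as lower, with a median log2 fold change of 0.16. The one that passed was SLC7A11, at 66.0 ± 3.54 CPM in minocycline cells and 12.8 ± 3.81 CPM in vehicle cells (log2 fold change 2.37 ± 0.21, adjusted p = 0.00649). Its call was lost without minocycline replicate 1 (adjusted p = 0.0909) and without minocycline replicate 3 (adjusted p = 0.0834). The next by unadjusted p were SLC6A15, a sodium-dependent carrier of branched-chain amino acids and proline (0.49 ± 0.24), the cationic carrier SLC7A2 (0.47 ± 0.32) and the alanine, serine and cysteine exchanger SLC7A10 (-0.32 ± 0.25), with an adjusted p of 0.820, 0.820 and 0.825. Without vehicle replicate 1, 6 of these carriers passed, among them SLC6A15 (log2 fold change 0.86, adjusted p = 0.00150) and SLC7A2 (1.00, adjusted p = 0.00316), where 9.52% of all genes tested were higher. SLC7A8, an alternative light chain that pairs with SLC3A2 in LAT2, showed -0.15 ± 0.16, and SLC7A6, another such partner, showed 0.38 ± 0.32, and both were picked after their values had been seen. SLC7A6 was among the carriers that passed without vehicle replicate 1. Of these 14 genes SLC7A11 was the one with an unadjusted p under 0.05.

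Of 7 lysosomal amino acid transporters, 6 were tested and none passed, with a median log2 fold change of 0.27. SLC38A9, the arginine sensor of the mTORC1 pathway, showed 0.48 ± 0.22, the histidine and peptide carrier SLC15A4 showed 0.33 ± 0.18, and SLC38A7, a glutamine and asparagine exporter, showed 0.26 ± 0.15. Their adjusted p was 0.820 each. Without vehicle replicate 1, 3 genes of the list passed, in a setting where 9.52% of all genes tested were higher. Among them were SLC38A9 (log2 fold change 0.75, adjusted p = 0.00695) and SLC15A4 (0.55, adjusted p = 0.0144). Of 10 mitochondrial amino acid carriers, 9 were tested and none passed, with a median of -0.03. SLC25A29, a carrier of basic amino acids, showed 0.20 ± 0.13, SLC25A18, a glutamate carrier, showed -0.31 ± 0.26, and SFXN1, the mitochondrial serine importer, showed -0.13 ± 0.12. SLC25A38, the glycine carrier of the mitochondrial inner membrane, was at 51.4 ± 1.38 CPM in minocycline cells and 55.8 ± 5.71 CPM in vehicle cells and was added after its value had been seen. With all libraries, 0 genes of these 2 lists had an unadjusted p under 0.05, and DESeq2 and limma-voom called 0. The differences between the lists were not tested.

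**Figure D5:**
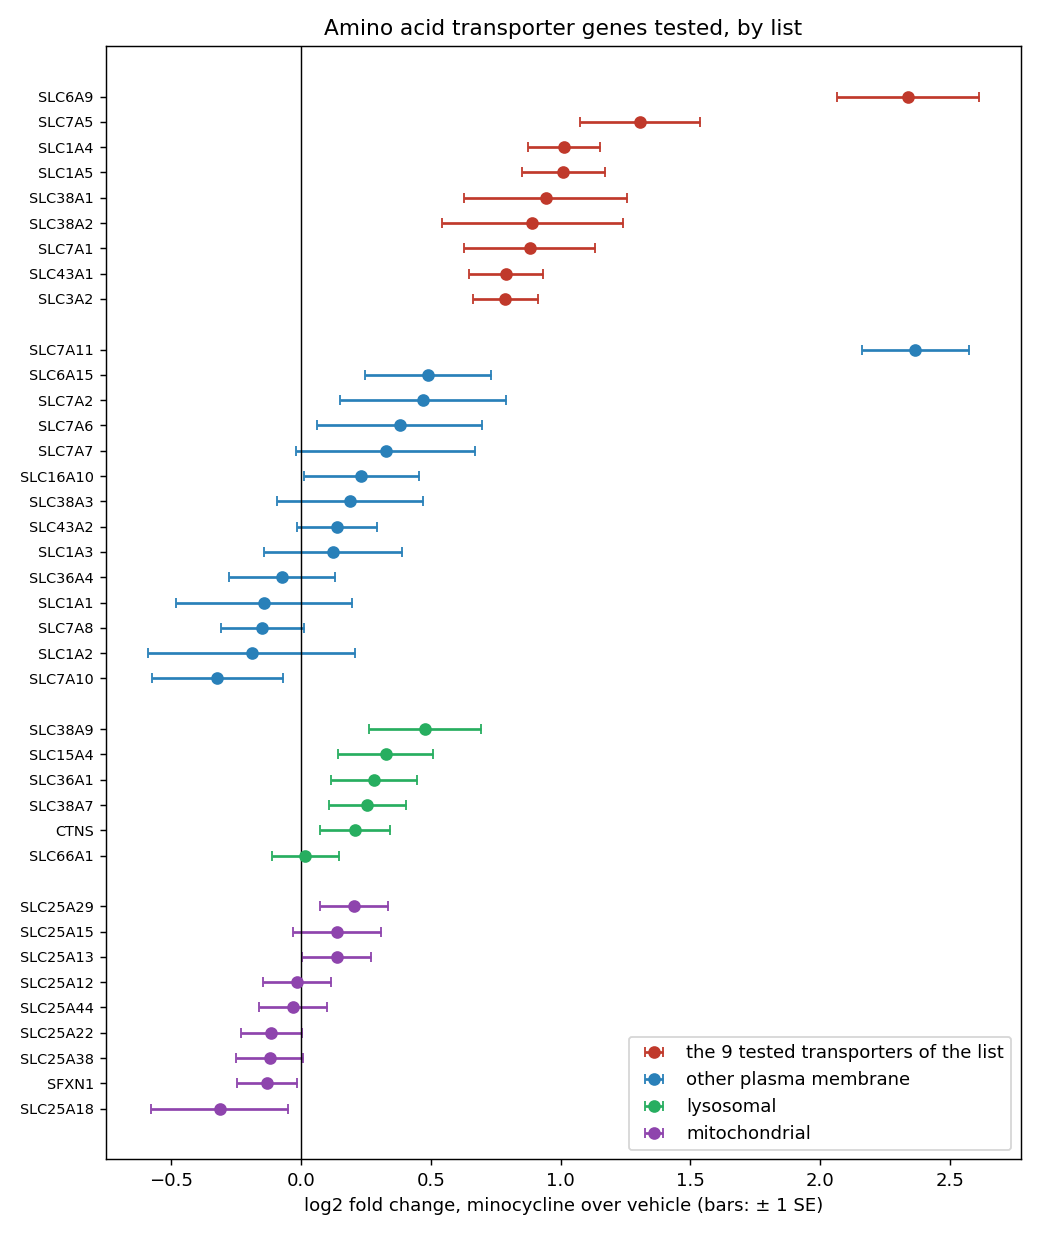
Log2 fold change of minocycline over vehicle with its SE for every tested amino acid transporter gene, ordered within each list. All 9 tested genes of the main list lie above 0, from 0.79 to 2.34, and SLC7A11 at 2.37 stands alone among the other plasma membrane carriers.

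The identity of the cells was checked on marker genes. INA, VIM, PAX2 and LIN28B, which HEK293 cells are known to express, were present in all libraries. Of markers of other cell types, the leukocyte gene PTPRC had 0 counts in every minocycline library and at most 3 in a vehicle library, and the melanocyte gene TYR had 0 counts in every minocycline library and at most 1 in a vehicle library. The liver gene ALB had 2 to 4 counts in minocycline libraries and 0 to 1 in vehicle libraries. The muscle gene DES was at 0.598 to 0.972 CPM in minocycline libraries and 0.543 to 1.63 CPM in vehicle libraries.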

How the data were processed

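Gene counts of total RNA from HEK293 cells came as a table of whole-number counts that the authors deposited without normalization, in a build given as hg19 per the submitters' processing notes. The aligner, counter, annotation and strand setting are not given in the sources used here. Symbols matched 55538 of 57820 identifiers, and positions and exon lengths came from a GENCODE annotation on GRCh37. It is not the annotation of the counts throughout, since the long noncoding RNA gene overlapping SLC1A5 is not a row there. The lengths behind levels per kilobase may therefore differ from the exons that were counted. Low genes were removed with filterByExpr, libraries were TMM-scaled, and 3 minocycline libraries were tested against 3 vehicle libraries with edgeR 4.0.16 (glmQLFit and glmQLFTest, R 4.3.3) with treatment as the single term. Genes were called at 0.05 after Benjamini-Hochberg adjustment over all genes tested. The SE is the log2 fold change divided by the square root of F. Log2 CPM used a prior count of 2. On simulated data the main fit recovered 7.46% of 67 genes changed 1.5-fold, 46.3% of 67 changed 2-fold and 90.9% of 66 changed 4-fold. Of its 102 calls there, 6 were of unchanged genes. A gene that did not pass may therefore still differ between the groups. The simulated counts were drawn gene by gene, with no effect shared across a library. In the real data vehicle replicate 1 stood apart, so the recovery rates may not hold there. No library repeated another.

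Same-numbered libraries share a batch per the labels. The deviations from the group means correlated at -0.05, -0.29 and 0.30 between libraries numbered 1, 2 and 3. Between differently numbered libraries the correlation ran from -0.42 to 0.50, the highest for minocycline replicate 2 with vehicle replicate 1. The pairing therefore rests on the label alone, and so do the within-batch differences and the replicate block. Alternatives were RLE, upper-quartile and library size scaling, no filter, at least 10 counts in every library, DESeq2 1.42.0, limma-voom (limma 3.58.1), the newer quasi-likelihood method, the replicate block, 1 surrogate variable (sva 3.50.0) and each library left out. Genes and lists were chosen with earlier results of these data known. Named genes were all 10 transporters, in each other list those past the threshold and the 3 next by p, the 5 nearest profiles of SLC6A9 and SLC1A4, and overlapping genes or copies. Some marker and overlapping genes are not reported here.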

Additional observations from a re-analysis of the deposited data

How the results depend on the processing

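The direction of each of the 9 tested genes was the same in all 16 alternatives, and SLC6A9 passed in 13 of them. Of the 9 genes, 2 passed with upper-quartile scaling and 2 with the newer quasi-likelihood method (SLC6A9 and SLC1A4 in each), 2 with the replicate block (SLC6A9 and SLC7A5), 6 with DESeq2, and 9 with no filter on low counts and with 1 surrogate variable, against 1 in the fit reported. With no filter the SE of SLC38A1, SLC38A2 and SLC7A1 shrank, and with 1 surrogate variable their fold changes fell, as given above. With each library left out in turn the number of the 9 genes that passed ran from 0 to 9. Of all genes tested 9 passed, against 94 with no filter, 50 with DESeq2, 91 with 1 surrogate variable and 1 to 3154 with each library left out, the highest without vehicle replicate 1. Leaving out each library gave 0 to 6 of the other plasma membrane carriers and 0 to 3 of the lysosomal ones. Both counts were highest without vehicle replicate 1, where 9.52% of all genes tested were higher. The replicate block changed no other call among the amino acid transporter genes. Low counts limit SLC6A9 in vehicle cells and SLC7A3 throughout.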
